A study of Mus musculus with 2 samples.

Results

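The 35 genes described here encode the enzymes and transporters of glycolysis and a set of genes that low oxygen is known to induce. They were matched by exact gene symbol, and each symbol was found in the deposited tables, which hold 32245 symbols in all. Aldoa is listed under 2 identifiers, so the 35 symbols correspond to 36 identifiers, and the second Aldoa identifier held only 16 and 14 UMIs in WT and HIF-1α KO. A UMI (unique molecular identifier) counts 1 captured RNA molecule.

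The nuclei came from frozen colon of mice with chronic colitis caused by dextran sodium sulfate (DSS), a polymer in the drinking water that injures the colonic epithelium. Mice of both genotypes were 8 to 12 weeks old and received 2% DSS for 3 days followed by 4 days of recovery, repeated for 4 cycles, and colon was taken on day 28. The WT group were littermates, and the HIF-1α KO group were Ncr1cre+ Hif-1αfl+/fl+ mice, in which the Ncr1 promoter drives Cre. By this design Hif1a is lost only in NKp46+ cells, which are natural killer cells and other group 1 innate lymphoid cells (ILC1s) and NKp46+ ILC3s, and the epithelium and stroma that make up most of the tissue keep the gene. All 3 animals of a genotype were pooled into a single library, so genotype, library and batch cannot be told apart, no test between genotypes was possible, and every interval given here covers counting error only.

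After the filter on nuclei, the WT library held 4884 nuclei with 13259430 UMIs and the HIF-1α KO library 4702 nuclei with 23605502 UMIs. The median depth per nucleus was 2058.5 UMIs for WT and 4197 for HIF-1α KO. Among all deposited barcodes, before the filter, 3 occurred in both libraries. Hif1a itself had 172 CPM (UMIs per 1000000 UMIs) in WT and 199 in HIF-1α KO nuclei, and in the small class of immune nuclei other than B cells it had 241 and 268. Ncr1 had 1 and 0 UMIs in all nuclei, so the cells in which the gene is deleted could not be seen at this depth. Reads were taken at the 3′ end of the RNA, and whether they cover the deleted part of Hif1a is not known, so these levels do not check the genotype. Mitochondrial genes took 0.245% of WT and 0.497% of HIF-1α KO UMIs.

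Glycolysis splits glucose into pyruvate in the cytosol. Glucose enters through facilitated transporters, hexokinase traps it, phosphofructokinase commits it, and lactate dehydrogenase turns the pyruvate into lactate when it is not oxidised in mitochondria. The transcription factor HIF-1, which is stable when oxygen is scarce, is known to switch on most of these genes together with genes for mitophagy, pH control, collagen cross-linking and its own feedback. In the colon, oxygen falls from the vascularised crypt base to the surface cells that face the anaerobic lumen, and the surface epithelium is known to be physiologically hypoxic.

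HIF binds DNA at hypoxia response elements, which hold the core ACGTG (in some of them GCGTG). Promoters, taken as 250 bases before to 50 after each start site of the RefSeq annotation of GRCm38.p6, were listed for 31 of the 35 members with 48 start sites; Slc2a3, Bnip3l, Plod2 and Ndrg1 were not in that table. Either core was present on either strand at 77.1% of the start sites of members, against 43.8% of all 32851 start sites in the table. The core ACGTG, which reads CACGT on the opposite strand, was present at 52.1% against 19.6%. The core GCGTG, which reads CACGC on the opposite strand, was present at 54.2% against 32.4%. The start sites of members were also richer in G and C, with a median of 62.7% against 52.7%, and the part of base composition in these shares was not tested. Counted by gene, 28 of 31 members had a match at any start site, or 90.3%, against 46.7% of 27025 symbols. A count by gene also grows with the number of start sites. There were 48 for the 31 members and 32851 for the 27025 symbols, and the part of this was not tested. The 4 promoters given here are shown because they belong to the members with the largest ratio between the libraries (Ankrd37), a difference past 1.5-fold in the most classes (Mxi1), the most UMIs (Hk2) and the most core matches (Ldha). Capitals mark each core match on either strand, and CACGTG holds overlapping matches on both strands.
Ankrd37, chr8:45999801-46000100, minus strand: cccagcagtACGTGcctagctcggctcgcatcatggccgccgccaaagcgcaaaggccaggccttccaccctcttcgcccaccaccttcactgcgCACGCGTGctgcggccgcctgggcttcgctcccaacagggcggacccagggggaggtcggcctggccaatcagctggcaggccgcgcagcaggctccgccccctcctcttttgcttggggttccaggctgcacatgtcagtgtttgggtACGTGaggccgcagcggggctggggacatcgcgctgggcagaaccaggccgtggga
Mxi1, chr19:53329163-53329462, plus strand: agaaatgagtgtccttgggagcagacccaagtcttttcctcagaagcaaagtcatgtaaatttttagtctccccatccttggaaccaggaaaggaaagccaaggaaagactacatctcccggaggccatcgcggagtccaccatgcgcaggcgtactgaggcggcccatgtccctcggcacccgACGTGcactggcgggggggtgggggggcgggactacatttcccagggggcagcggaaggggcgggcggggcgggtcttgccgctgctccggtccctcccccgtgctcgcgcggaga
Hk2, chr6:82774405-82774704, minus strand: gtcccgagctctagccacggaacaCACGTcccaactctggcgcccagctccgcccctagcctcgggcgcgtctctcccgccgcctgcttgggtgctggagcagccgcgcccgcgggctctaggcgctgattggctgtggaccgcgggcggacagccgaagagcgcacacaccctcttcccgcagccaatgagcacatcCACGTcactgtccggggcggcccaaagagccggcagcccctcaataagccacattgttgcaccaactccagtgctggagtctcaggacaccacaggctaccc
Ldha, chr7:46845554-46845853, plus strand: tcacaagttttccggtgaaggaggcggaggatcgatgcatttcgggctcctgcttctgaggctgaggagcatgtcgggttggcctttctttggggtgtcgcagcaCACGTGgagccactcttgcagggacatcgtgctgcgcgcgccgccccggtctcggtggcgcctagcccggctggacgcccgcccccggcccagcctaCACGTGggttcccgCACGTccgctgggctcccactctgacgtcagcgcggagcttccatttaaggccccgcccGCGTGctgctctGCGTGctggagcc
The Ankrd37 window held 4 matches, of which the ACGTG nearest to the start began 6 bases before it. For a member with several start sites, one with the most matches is shown. Mxi1 had 3 start sites, with 1 match in this window, 1 in the window chr19:53329445-53329744 and none at the upstream site. Hk2 had 2 matches. Ldha had 7 in this window and 2 at its other start site. A match of letters describes the sequence and does not show that the factor binds there.

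Summed over the 35 members, the module made up 1475 CPM in the WT library (95% interval 1455 to 1496, 19562 UMIs) and 1895 CPM in the HIF-1α KO library (1877 to 1912, 44723 UMIs). The log2 ratio of HIF-1α KO over WT was 0.36 (0.34 to 0.39). Over the 12785 genes that reached 100 UMIs when both libraries were added, the median log2 ratio was -0.01, and 49.5% of genes lay above 0. Of the 33 members that reached this minimum, 24 lay above 0 and their median was 0.33. Aldoc (34 and 64 UMIs) and Eno2 (35 and 31 UMIs) did not reach it. With nuclei thinned to 1000 UMIs each, which left out 63 HIF-1α KO and 0 WT nuclei and kept 123 of 165 HIF-1α KO nuclei of an unnamed shallow cluster, a WT nucleus carried 1.46 module UMIs on average and a HIF-1α KO nucleus 1.83. A sum over all nuclei also moves with the share of each class, so levels within classes are given too.

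**Figure D1:**
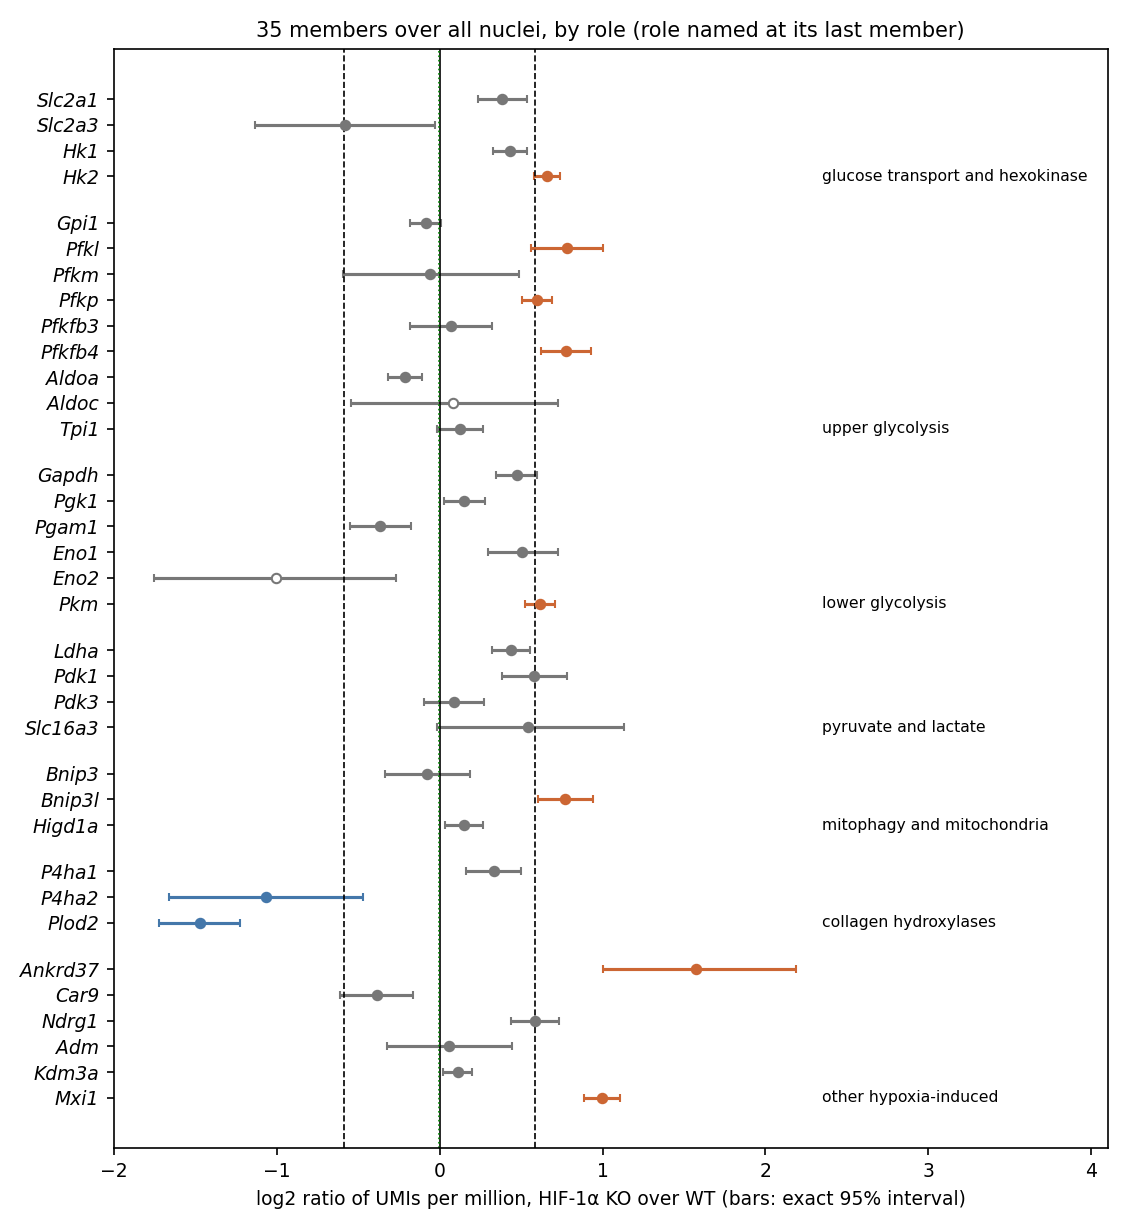
Log2 ratio of CPM, HIF-1α KO over WT, for the 35 members over all nuclei, grouped by role. Points are ratios with exact 95% intervals for counting error, dashed lines mark 1.5-fold in either direction, a dotted line marks the median of all genes, orange points were higher and blue points lower by that size, and open points had under 100 UMIs. The 8 higher members lie between 0.60 and 1.57, and the 2 lower ones are P4ha2 and Plod2.

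A member was taken as higher or lower when its CPM differed by at least 1.5-fold. By this rule of size 8 of 33 members were higher in the HIF-1α KO library, or 24.2%, against 11.8% of all genes, and 2 were lower, or 6.06%, against 14.9%. The minimum of 100 UMIs was set on both libraries together, and the HIF-1α KO library was the deeper. Here and within classes, a gene could thus reach it through the library in which it was higher. The counts describe the members that were measured, and the part of this in the shares was not tested. With the cluster levels averaged by the cluster shares of the WT library, 5 members were higher, and Hk2 (0.45), Pfkp (0.51) and Pkm (0.52) were then within 1.5-fold. No share of all genes was taken with these cluster shares, so the 5 members cannot be set against the 11.8%. In the entry step, Slc2a1, the main glucose transporter of epithelia, had 38.8 CPM in WT and 50.7 in HIF-1α KO nuclei, with a ratio on the log2 scale of 0.38 (0.23 to 0.54) that did not reach 1.5-fold. The high-affinity transporter Slc2a3 was rare, at 4.00 and 2.67 CPM. Hk2 (chromosome 6, 82725025 to 82774454 of GRCm38), the inducible hexokinase bound to mitochondria, was the most abundant member by UMIs and had 133 and 210 CPM, a ratio of 0.66 (0.58 to 0.74). The constitutive hexokinase Hk1 had 81.1 and 109 CPM, a ratio of 0.43 (0.33 to 0.54).

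In upper glycolysis the members past the size rule were 3 genes of the regulated phosphofructokinase step. Pfkl, the liver-type phosphofructokinase, had 16.9 and 29.0 CPM and a log2 ratio of 0.78 (0.56 to 1.00). Pfkp, the platelet type, had 104 and 157 CPM and a ratio of 0.60 (0.51 to 0.69). Pfkfb4, which makes and breaks the activator fructose 2,6-bisphosphate, had 34.5 and 59.2 CPM and a ratio of 0.78 (0.62 to 0.93). These enzymes passed the size rule, whereas the isomerase Gpi1, the aldolase Aldoa and the triose phosphate isomerase Tpi1 had ratios of -0.09, -0.21 and 0.13. Pfkfb3, the other inducible enzyme of the Pfkfb pair, had a ratio of 0.07, whereas the muscle-type Pfkm (3.62 and 3.47 CPM) and the brain-type Aldoc (2.56 and 2.71 CPM) were rare.

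In lower glycolysis, Pkm, the pyruvate kinase of proliferating and epithelial tissue, had 103 and 158 CPM and a log2 ratio of 0.62 (0.53 to 0.71), which passed the size rule. Gapdh (0.47) and Eno1 (0.51) lay above 0 with intervals clear of it but below 1.5-fold, and Pgk1 was at 0.15. Pgam1, the phosphoglycerate mutase, lay on the other side, with 30.1 and 23.4 CPM and a ratio of -0.36 (-0.55 to -0.17). The steps of the pathway were therefore unequal in this comparison. Gapdh, Aldoa, Tpi1, Pgk1, Pgam1, Eno1 and Ldha have near-identical copies or pseudogenes in the genome, so their counts depend on how such reads were assigned.

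Around pyruvate, Ldha had 64.2 and 87.0 CPM, a log2 ratio of 0.44 (0.32 to 0.56). Pdk1, the kinase that holds pyruvate out of mitochondria, had 21.7 and 32.5 CPM and a ratio of 0.58 (0.38 to 0.78), just under the size rule. Pdk3 was nearly level at 27.9 and 29.7 CPM, and the lactate exporter Slc16a3 had only 37 and 96 UMIs. Among the mitochondrial members, the mitophagy receptor Bnip3l had 29.0 and 49.5 CPM and a ratio of 0.77 (0.61 to 0.94). Its relative Bnip3 had 14.8 and 14.0 CPM, and Higd1a, a small protein of the inner membrane, 66.9 and 74.1 CPM.

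Of the other hypoxia-induced members, Ankrd37 had the largest ratio of the module, 1.57 (1.00 to 2.19), from only 30 WT and 159 HIF-1α KO UMIs (2.26 and 6.74 CPM). Mxi1 (chromosome 19, 53310518 to 53375810), a partner of Max that opposes Myc at its targets, had 64.1 and 128 CPM and a ratio of 0.99 (0.88 to 1.11) with 850 and 3016 UMIs. Ndrg1, a stress-induced gene of differentiated epithelium, had 38.4 and 57.5 CPM and a ratio of 0.58 (0.44 to 0.73), at the edge of the rule. The histone demethylase Kdm3a (0.11) and the peptide hormone Adm (0.06) were close to level. Car9, the membrane carbonic anhydrase that is among the best known HIF targets, had 21.6 and 16.6 CPM and a ratio of -0.39 (-0.61 to -0.16). The collagen-modifying enzymes differed in direction. The prolyl hydroxylase P4ha1 had 31.1 and 39.1 CPM, whereas P4ha2 had 4.07 and 1.95 CPM and the lysyl hydroxylase Plod2 26.5 and 9.53 CPM, with ratios of 0.33, -1.06 (-1.66 to -0.47) and -1.47 (-1.72 to -1.23).

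**Figure D2:**
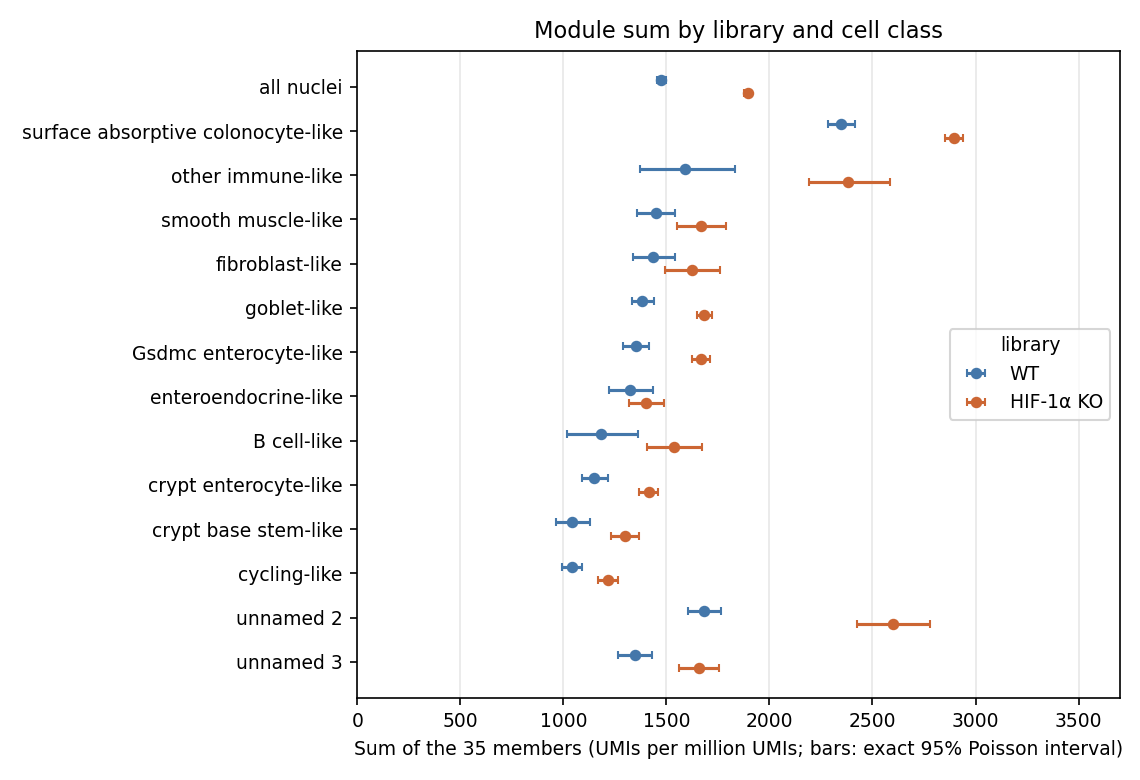
Sum of the 35 members in CPM, by library and class of nuclei, with exact 95% Poisson intervals; named classes are ordered by their WT level. The surface absorptive colonocyte-like nuclei have the highest level in each library, and the HIF-1α KO point lies to the right of the WT point in each of the 11 named classes shown and in both unnamed clusters.

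Nuclei were grouped by clustering without the 35 members among the features, and a cluster took its name, marked "-like", from the list of marker genes that led it. Among the crypt and absorptive classes, the module was lowest in those named for the crypt and highest in that named for the surface, although position in the tissue was not itself measured. The cycling-like nuclei of the crypt had 1040 CPM in WT and 1215 in HIF-1α KO, and the crypt base stem-like nuclei 1044 and 1299. In the WT library the intervals of these classes overlapped (992 to 1090 and 963 to 1129). The crypt enterocyte-like nuclei followed with 1151 and 1413 CPM and the Gsdmc enterocyte-like nuclei with 1352 and 1667. The goblet-like (1384 and 1684) and enteroendocrine-like (1325 and 1402) nuclei lay at similar levels. The surface absorptive colonocyte-like nuclei stood at 2348 CPM (2284 to 2413) and 2896 CPM (2852 to 2940), above every other named class in both libraries. This class joined a cluster led by Slc9a3 and Slc37a2, with 1837 and 2307 CPM, and a cluster led by Ifit1bl1 and Clca4a, with 2837 and 3455 CPM. The crypt enterocyte-like name rested on 3 of the 6 markers in its list. All 6 markers summed to 4248 CPM in WT and 4416 in HIF-1α KO crypt enterocyte-like nuclei, and to 3351 and 4624 in crypt base stem-like nuclei.

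The difference between surface and crypt base is measured inside each library, so it does not depend on the comparison of the pools. The module was higher in the surface absorptive than in the crypt base stem-like nuclei by 1.17 on the log2 scale (1.05 to 1.29) within WT and by 1.16 (1.08 to 1.24) within HIF-1α KO. Of all 35 members, 31 had the higher level at the surface in each library, and no share of all genes was taken for this count. It includes rare members at 0 CPM at the crypt base, namely Aldoc, Eno2, Ankrd37 and Adm in WT and Eno2 in HIF-1α KO. In such members a higher level at the surface can rest on few UMIs. Among genes with at least 100 UMIs in both classes together, 18 of 20 members in the WT library were higher at the surface by 1.5-fold against 30% of all genes, and 0 were lower against 22.4%. In the HIF-1α KO library 19 of 27 members were higher against 22.3%, and 1, Pdk3, was lower against 34.9%. Members that pass this minimum mostly do so through the deeper surface nuclei, so these counts describe the members that were measured and not the whole list.

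Slc2a1 had 21.8 CPM at the crypt base and 83.4 at the surface of the WT library, and 27.7 and 99.9 in HIF-1α KO. Hk2 had 97.2 and 288 CPM in WT and 124 and 389 in HIF-1α KO. Both members were thus higher at the surface in either pool. Mxi1 had 33.5 and 135 CPM in WT and 98.7 and 219 in HIF-1α KO, and the difference between its steps was not tested. Ndrg1 had 13.4 CPM at the crypt base and 54.8 at the surface of WT. The mitophagy receptor Bnip3 had 10.1 and 35.9 CPM in WT and 2.77 and 33.2 in HIF-1α KO, from 6 and 3 UMIs at the crypt base. Mitochondrial genes moved along the same axis, with 0.0973% of UMIs in the crypt base and 0.603% in the surface nuclei of WT, and 0.189% and 1.14% in HIF-1α KO, and their part in these levels was not tested. Leaving mitochondrial genes and Malat1 out of the totals gave 1.25 and 1.24 for the module.

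The surface nuclei also held the largest share of module UMIs of any class in each library. They made up 10.5% of WT nuclei and held 16.4% of all WT UMIs and 26.1% of the WT module UMIs. In HIF-1α KO they made up 17.5% of nuclei and held 24.9% of all UMIs and 38.0% of the module UMIs. Shares of nuclei moved for other classes too, and averaging the cluster levels with the shares of the WT library lowered the log2 ratio of the module from 0.36 to 0.31.

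Within classes, HIF-1α KO nuclei had the higher module level in 11 of the 11 named classes with at least 50 nuclei in each library. The unnamed clusters 2 and 3 were left out of this count. They held 14.4% and 10.1% of WT nuclei, and 3.51% and 5.83% of HIF-1α KO nuclei. The 10 marker genes of surface absorptive colonocytes, none of them a member, were also higher in sum in 11 of 11 classes. In the 10 classes other than the surface class they summed to 768 to 1634 CPM in WT and 1065 to 2508 in HIF-1α KO, with 7 to 10 of the 10 genes present, and the surface class had 5793 and 7556 CPM. The mitochondrial share was higher in HIF-1α KO in 11 of 11 classes as well. The part of either in the module ratios was not tested. The log2 ratio was 0.30 (0.26 to 0.35) in surface absorptive, 0.30 (0.22 to 0.38) in Gsdmc enterocyte-like, 0.30 (0.20 to 0.39) in crypt enterocyte-like, 0.32 (0.18 to 0.45) in crypt base stem-like, 0.28 (0.22 to 0.35) in goblet-like and 0.22 (0.13 to 0.31) in cycling-like nuclei. The counting intervals of these epithelial ratios overlapped. The lowest was that of enteroendocrine-like nuclei, 0.08 (-0.06 to 0.23), whose interval includes 0. Fibroblast-like and smooth muscle-like nuclei had 0.18 (0.02 to 0.33) and 0.20 (0.06 to 0.34), B cell-like nuclei 0.38 (0.14 to 0.63), and the other immune-like nuclei 0.58 (0.35 to 0.83) from 191 and 587 module UMIs. The make-up of the last class differed between the libraries, with 716 and 2472 CPM for 11 markers of T or innate lymphoid cells, 1598 and 560 for 11 of macrophages or other myeloid cells and 125 and 856 for 6 of neutrophils. Ncr1, Cd96 and Il2rb were at 0 in WT and Ncr1 in HIF-1α KO, Cd163 was at 0 in both and C1qa in HIF-1α KO, and S100a8, Cxcr2 and Mmp8 were at 0 in WT. The part of this make-up in the ratio was not tested. In each of the 11 classes the ratio lay above the median of all genes measured there, although in enteroendocrine-like nuclei that median was 0.07 and in crypt base stem-like nuclei 0.21. The unnamed cluster 2, which was shallow and led by AY036118 and Gpx2 with ribosomal protein genes among its leading genes, had 1682 and 2598 CPM, and mitochondrial genes took 0.278% and 1.10% of its UMIs. The part of that difference in its ratio of 0.63 was not tested.

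**Figure D3:**
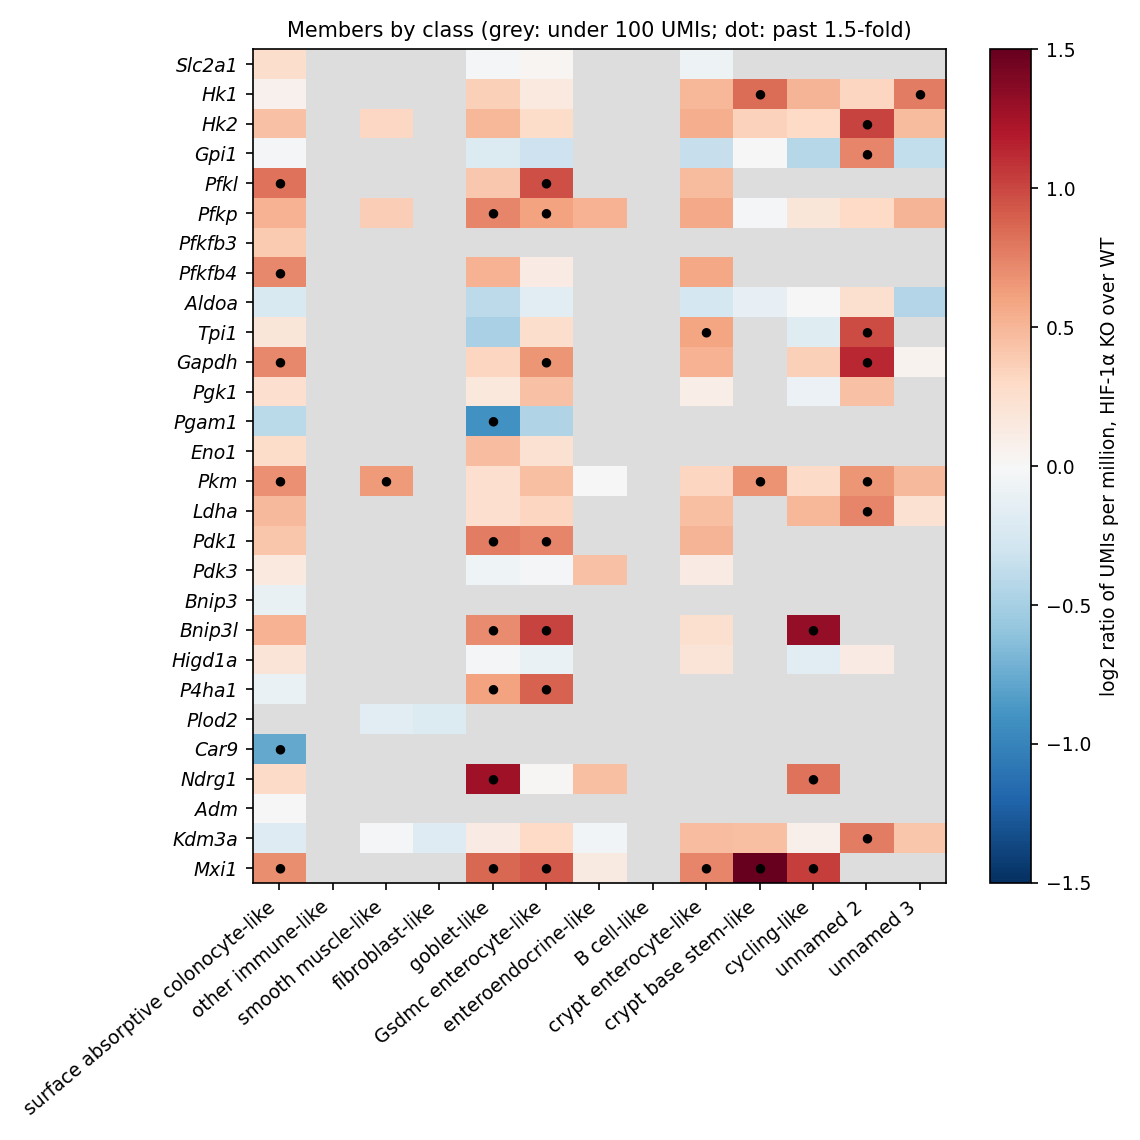
Log2 ratio of CPM, HIF-1α KO over WT, for members (rows) with at least 100 UMIs in a class (columns); grey cells had fewer UMIs and dots mark 1.5-fold or more. Mxi1 is past the size rule in 6 columns of named classes, whereas the dotted blue cells are Pgam1 in goblet-like and Car9 in surface absorptive nuclei.

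The members behind these sums differed by class. In the surface absorptive nuclei 5 of 27 members were higher by 1.5-fold (18.5%, against 8.78% of all genes), namely Pfkl, Pfkfb4, Gapdh, Pkm and Mxi1, and Car9 alone was lower (3.70%, against 11.4%). In Gsdmc enterocyte-like nuclei 7 of 23 were higher (30.4%, against 9.71%), namely Pfkl, Pfkp, Gapdh, Pdk1, Bnip3l, P4ha1 and Mxi1, and 0 were lower against 5.29%. In goblet-like nuclei 6 of 23 were higher (26.1%, against 8.92%), namely Pfkp, Pdk1, Bnip3l, P4ha1, Ndrg1 and Mxi1, and Pgam1 was lower (4.35%, against 7.68%). Pfkp, Pdk1, Bnip3l, P4ha1 and Mxi1 were thus past the rule both in the mucus-secreting goblet-like and in the Gsdmc enterocyte-like nuclei.

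In the crypt, 2 of 19 members were higher in crypt enterocyte-like nuclei, Tpi1 and Mxi1, or 10.5% against 10.9% of all genes, a share near the background, and 0 were lower against 5.27%. In crypt base stem-like nuclei 3 of 8 were higher, Hk1, Pkm and Mxi1 (37.5%, against 16.9%), with 0 lower against 4.38%. These nuclei held 596903 UMIs in WT and 1084612 in HIF-1α KO, so members could reach the minimum through the HIF-1α KO library. In cycling-like nuclei 3 of 15 were higher, Bnip3l, Ndrg1 and Mxi1 (20%, against 10.9%), with 0 lower against 4.92%. Outside the absorptive and goblet lineages few members reached 100 UMIs. In smooth muscle-like nuclei Pkm was higher among 5 (20%, against 9.11%) and 0 were lower against 5.32%. No member was past the rule among the 6 measured in enteroendocrine-like nuclei, where 7.42% of genes were higher and 3.85% lower, or the 2 measured in fibroblast-like nuclei, where these shares were 7.57% and 4.66%.

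The classes are parts of the same 2 libraries, so a difference seen in several of them is not a repeat of the comparison. Mxi1 was the member past the size rule in the most classes, and no share of all genes was taken for such a count. It was higher by 1.5-fold in 6 of the 7 classes in which it was measured, from 33.5 to 98.7 CPM in crypt base stem-like nuclei (log2 ratio 1.56, 0.86 to 2.33), from 31.6 to 64.9 in cycling-like, from 69.0 to 130 in Gsdmc enterocyte-like and from 58.1 to 105 in goblet-like nuclei. In enteroendocrine-like nuclei it had 80.0 and 87.8 CPM, a ratio of 0.13 (-0.46 to 0.75). The stromal and immune classes had too few UMIs for the rule, but the smooth muscle-like nuclei had 51.4 and 86.3 CPM. Hk2 lay above 0 in each of the 7 classes where it was measured without reaching 1.5-fold in any, with 288 and 389 CPM at the surface and 159 and 224 in goblet-like nuclei. Its ratio over all nuclei of 0.66 became 0.45 with the cluster shares of the WT library, so part of that value went with the different cluster shares of the libraries.

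**Figure D4:**
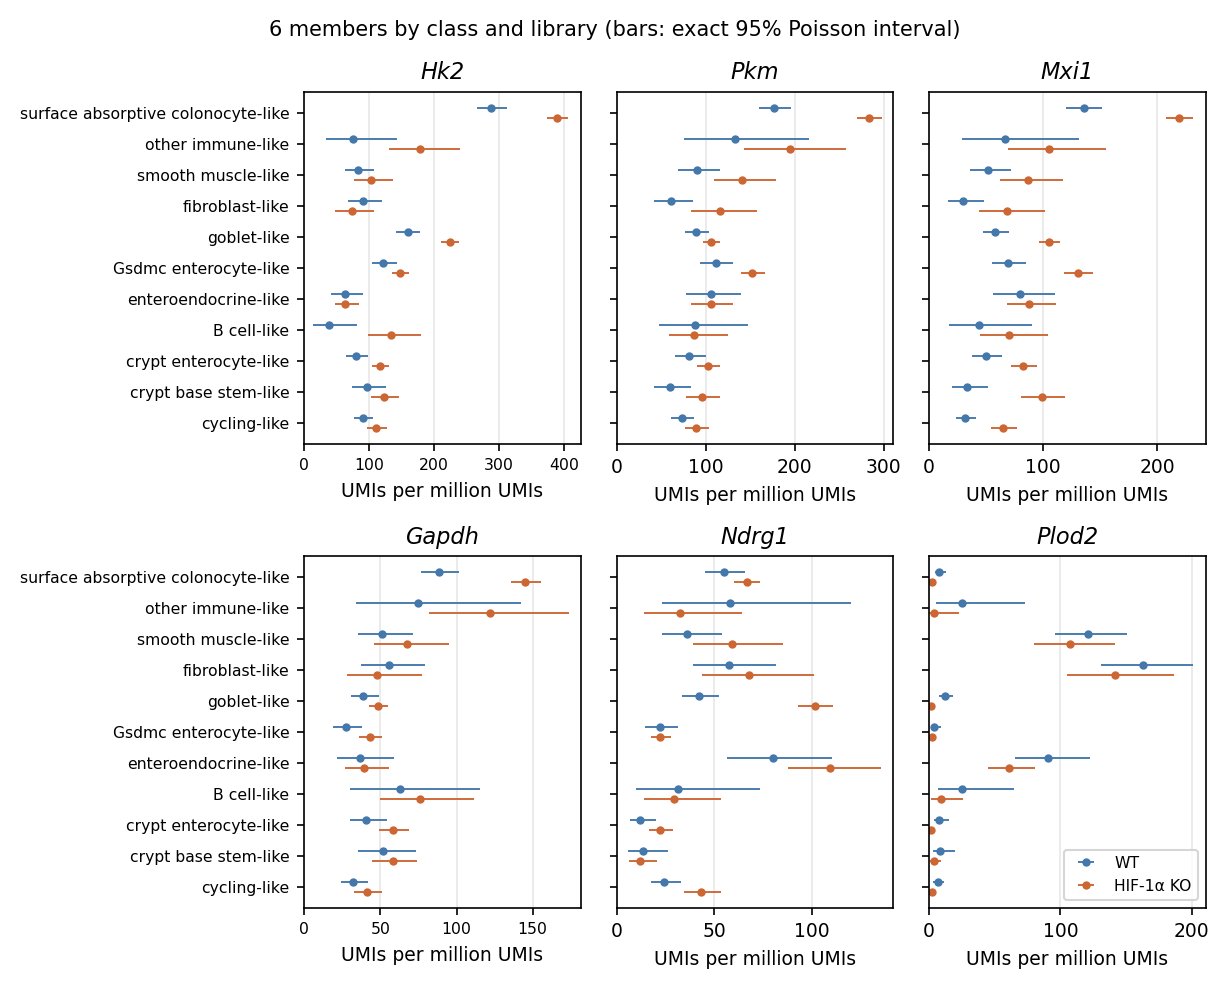
Levels of 6 members in CPM by class and library, with exact 95% Poisson intervals. Hk2, Pkm, Mxi1 and Gapdh are highest in the surface absorptive nuclei of both libraries, Ndrg1 is higher in the HIF-1α KO than in the WT goblet-like nuclei, and Plod2 is high in fibroblast-like, smooth muscle-like and enteroendocrine-like nuclei.

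Ndrg1 had its largest ratio of the classes where it was measured in goblet-like nuclei, with 42.1 CPM in WT and 101 in HIF-1α KO, a ratio of 1.27 (0.93 to 1.63). In cycling-like nuclei it had 24.4 and 43.1 CPM, a ratio of 0.82 (0.27 to 1.39) that overlapped it. The ratio was 0.28 (-0.02 to 0.59) in the surface nuclei and 0.02 (-0.63 to 0.69) in the Gsdmc enterocyte-like nuclei, and differences between classes were not tested. Within the goblet-like class the difference lay in 2 of its 3 clusters. Cluster 4 went from 41.7 to 128 CPM (1.61, 1.09 to 2.18) and cluster 12 from 33.1 to 131 CPM (1.98, 1.06 to 3.07), whereas cluster 9 had 46.0 and 56.4 CPM (0.29, -0.27 to 0.89). Bnip3l had a ratio of 1.32 (0.70 to 1.98) in cycling-like, 1.01 (0.40 to 1.68) in Gsdmc enterocyte-like and 0.25 (-0.34 to 0.86) in crypt enterocyte-like nuclei, with overlapping intervals.

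Car9 differed in the other direction from most of the module. In the surface absorptive nuclei, its highest of the 11 classes, it had 44.2 CPM in WT and 26.1 in HIF-1α KO (-0.76, -1.14 to -0.38), and both surface clusters showed the lower level, with ratios of -0.67 and -0.83. In crypt enterocyte-like nuclei it had a ratio of -0.80 from 32 and 41 UMIs, under the minimum. Adm, a vasodilator peptide, had 19.3 CPM at the surface of both libraries.

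Collagen-modifying enzymes are known for their role in stromal cells, and nuclei of fibroblast-like and smooth muscle-like classes made up 10.3% of WT nuclei (9.44 to 11.2, exact binomial) and 5.30% of HIF-1α KO nuclei (4.67 to 5.97). Plod2 had its highest levels in these classes, 163 and 142 CPM in fibroblast-like nuclei (log2 ratio -0.20, -0.73 to 0.32) and 121 and 107 in smooth muscle-like nuclei (-0.17, -0.71 to 0.35). Enteroendocrine-like nuclei had 90.8 and 61.1 CPM. In the fibroblast-like and smooth muscle-like classes Plod2 was thus within 1.5-fold. With the cluster shares of the WT library its ratio of -1.47 over all nuclei became -0.61, which was still past 1.5-fold. In the other epithelial classes together Plod2 had 7.96 CPM (6.21 to 10.1) in WT and 2.03 (1.45 to 2.76) in HIF-1α KO. The 11 fibroblast marker genes summed to 112 and 49.95 CPM in the same epithelial nuclei, all 11 with UMIs, and the part of free stromal RNA in the epithelial values was not tested. P4ha2 had 15.8 and 10.9 CPM in the fibroblast-like and smooth muscle-like nuclei together, from 19 and 9 UMIs. P4ha1, which is expressed in epithelium as well, had 55.5 and 99.1 CPM in fibroblast-like nuclei from 30 and 35 UMIs, and 35.2 and 53.5 CPM in goblet-like nuclei.

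**Figure D5:**
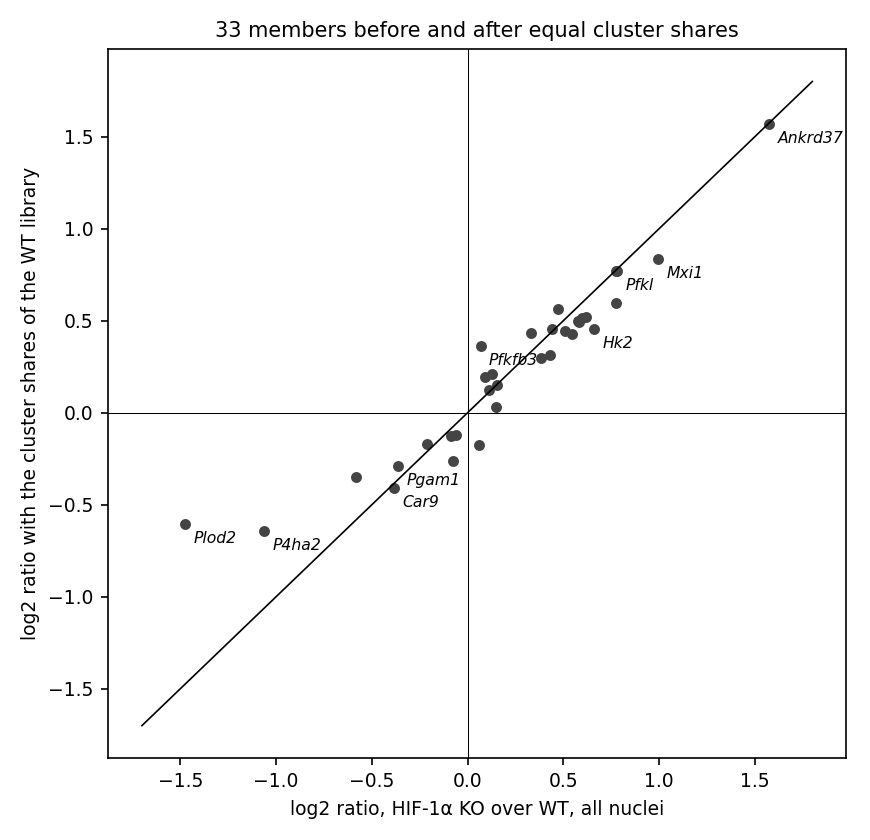
Log2 ratio of HIF-1α KO over WT for the 33 members with at least 100 UMIs, over all nuclei as found (horizontal axis) and with the cluster levels averaged by the cluster shares of the WT library (vertical axis); the line marks equal values. Ankrd37 and Pfkl lie on the line, Hk2 and Mxi1 lie below it, and Plod2 and P4ha2 lie well above it.

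Of the 35 members, 21 had their highest level, among the 11 classes compared, in the same class in both libraries. For the other 14 that class differed. No share of all genes was taken beside this count, and the ranks of rare members rest on few UMIs. Ankrd37 had 30 and 159 UMIs over all nuclei, and Eno2 35 and 31. For 10 of the 21 the shared class was the surface absorptive class (Slc2a1, Hk2, Gpi1, Gapdh, Pgk1, Pkm, Car9, Adm, Mxi1 and Higd1a). Fibroblast-like nuclei were highest for Eno2, P4ha1, Plod2 and Kdm3a, with Kdm3a at 155 and 136 CPM. Other immune-like nuclei, led by Skap1, Fyb and Cd247 with S100a9 and Il1b, were highest for Pfkfb3, Eno1 and Slc16a3, but the Eno1 (4 and 9) and Slc16a3 (1 and 6) UMIs there are too few to rank. Pfkfb3, whose product drives glycolysis in activated leukocytes and endothelium, had 117 and 207 CPM there against 12.4 and 16.4 at the surface. The neuronal-type transporter Slc2a3 was highest in B cell-like nuclei, from 6 and 12 UMIs. Pdk3 and Ndrg1 were highest in enteroendocrine-like nuclei, Pdk3 with 77.8 and 106 CPM, and Pfkp in smooth muscle-like nuclei, with 184 and 238 CPM.

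Levels of different genes were compared per kilobase of gene span, a scaling that presumes intronic reads among the counts, and whether these counts grow with span was not tested. On this scale of CPM per kilobase, Tpi1 (12.5 in WT and 13.6 in HIF-1α KO), Gapdh (11.7 and 16.3), Higd1a (6.83 and 7.56) and Aldoa (6.58 and 5.69) led the module. Shares within an enzyme family are given on the same scale. Hk2 made up 75.4% of the hexokinase level in WT and 78.4% in HIF-1α KO (60.5% and 64.2% of UMIs without the scaling), Hk1 20.4% and 18.2% (36.9% and 33.4% of UMIs), and Hkdc1 and Hk3 each stayed at or below 1.33%. Pfkp made up 64.6% and 62.9% of phosphofructokinase (83.5% and 82.8% of UMIs), and Aldoa 88.0% and 82.0% of aldolase (92.4% and 86.8% of UMIs). Ldha made up 99.2% and 99.6% of lactate dehydrogenase, and Ldhb had 9 and 10 UMIs.

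At the enolase step the order turned with the scale. Eno3, the muscle-type enolase, made up 49.5% of enolase per kilobase in WT and 61.7% in HIF-1α KO, against 42.9% and 36.1% for Eno1. By UMIs, Eno1 led with 60.9% and 55.7%, and Eno3 had 30.7% and 41.6%. Pfkfb2, a gene outside the module, led its family on both scales, with 57.8% and 52.0% per kilobase and 52.9% and 48.6% of UMIs. Pkm made up 73.2% and 72.1% of pyruvate kinase, the rest being Pklr. Pgam2, Pdk4, Ldhb, Hk3 and Hkdc1 had fewer than 100 UMIs, and no ratio between the libraries was taken for them.

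Lists holding 66 further genes of the pathway and of the oxygen response were measured over all nuclei. Such levels also move with the share of each class, and these genes were not averaged with the cluster shares of the WT library. All counts over these lists stand beside the 11.8% of all genes that were higher and the 14.9% that were lower. Of 9 measured HIF subunits and oxygen sensors 2 were higher and 0 lower. Epas1, which encodes HIF-2α, had 79.9 and 127 CPM (log2 ratio 0.67), and Egln3, a HIF-induced prolyl hydroxylase, 42.0 and 80.8 CPM (0.94). Hif1a (0.21), Hif3a (0.09) and Arnt (0.04) lay within 1.5-fold, and Arnt2 had 20 and 33 UMIs. Of 14 measured paralogs and side steps 5 were higher and 1 was lower. Those higher included Eno3 (1.07), Pklr (0.70), Pdk2 (0.78) and the fructose transporter Slc2a5 (0.90), Pfkfb1 (-0.60) was lower, and Pfkfb2 (0.23) was within the rule. Of 9 measured genes of gluconeogenesis and pyruvate oxidation 1 was higher, Pck1 (11.5 and 21.2 CPM, 0.89), a share near that of all genes, and 0 were lower.

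A further list of 24 hypoxia-induced genes, of which 19 were measured, differed in direction, with 5 higher and 4 lower beside the same shares of all genes. Cited2 (0.86), Errfi1 (0.74), Selenbp1 (0.83), Slc6a8 (0.97) and Nt5e (0.95) were higher, and those lower included Ak4 (-0.73), Loxl2 (-1.73) and Car12 (-1.10). Vegfa, the classical angiogenic target, had 34.1 and 38.7 CPM (0.18). The median log2 ratio of the 19 was 0.16, between that of the module and that of all genes. Of the WT UMIs of Loxl2, a collagen cross-linking enzyme, 51.6% lay in fibroblast-like and smooth muscle-like nuclei, which had 40.7 CPM in WT and 24.2 in HIF-1α KO.

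The genes whose level followed the module most closely across the 11 classes in both libraries, 22 points in all, were sought among 5916 genes with at least 1000 UMIs. They were Jak2 (Pearson r = 0.94), Spag9 (0.92), mt-Co3 (0.91), Mxd1 (0.90) and Ptprh (0.90) on the scale log2(CPM + 10). The points share 2 libraries and the high surface class, and r is given as a description only. Mxd1, a Max partner like Mxi1, had 893 and 1476 CPM at the surface against 101 and 123 at the crypt base, and Ptprh 409 and 789 against 53.6 and 83.9.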

How the data were processed

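Single-nucleus RNA libraries (10x Chromium 3′ v3.1) of WT and HIF-1α KO colon, 1 per genotype, were analysed. The authors had run Cell Ranger 7.0.1, per the labels, on the mouse reference mm10 and deposited raw UMI counts per gene and nucleus. Whether intronic reads were counted is not given in the sources used here. Nuclei with 400 to 5000 detected genes and at most 10% mitochondrial UMIs were kept; no other doublet removal was made. Libraries were integrated and clustered with Seurat 5.3.0 (R 4.3.3; 2000 variable features less the members, 30 components, resolution 1). Of 24 clusters, 4 stayed unnamed by thresholds set after the data were seen.

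UMIs were summed per library and class and divided by all UMIs (CPM). Intervals at 95% are exact: Poisson for CPM, conditional binomial for the log2 ratio. With 1 library per genotype, a difference of 1.5-fold among features with at least 100 UMIs in both libraries together served as a rule of size. The text names every member, those past this size in a class, other pathway genes past it in all nuclei, paralogs and HIF subunits, and the 5 genes most like the module. Some genes of these lists are not reported here. Loxl2 by compartment, clusters within classes and the surface against crypt base comparison were added after values were seen. Members and lists were chosen with earlier results of these data known. Gene positions are from GENCODE M21 and promoters from RefSeq (GRCm38.p6). Python 3.11.15 with numpy 2.4.6, pandas 2.3.3 and scipy 1.17.1 was used. Alternatives changed weighting, scaling, depth, cut-offs and class assignment.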

Additional observations from a re-analysis of the deposited data

How the results depend on the processing

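The module sum over all nuclei stayed higher in the HIF-1α KO library in each of 9 alternatives, and 6 of them lay within its counting interval of 0.34 to 0.39. It was 0.33 when thinned to 1000 UMIs, 0.31 with the cluster shares of the WT library and 0.33 without Hk2; the cause was not tested. Of 107 combinations of class and alternative, 106 were above 0, and the exception was the enteroendocrine-like class with nuclei assigned by marker score, at -0.031. The surface over crypt base difference of the HIF-1α KO library, with the alternatives chosen after seeing the data, was 1.40 with the median of all genes set to 0 and 1.04 with nuclei assigned by marker score.

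A 2-fold rule left 1 of the 8 higher members in all nuclei, and cluster shares of the WT library (chosen after seeing the data) left 5. The 2 lower members became 1 with a minimum of 200 UMIs. Over named classes, 27 of 128 measured combinations of member and class were higher and 2 lower. They became 44 and 5 of 187 with a minimum of 50 UMIs, and 5 and 0 of 128 with a 2-fold rule, by construction of the rule. No share of all genes was taken under these alternative cut-offs and cluster shares. The counts thus do not show whether members differed from all genes there. Depth limits the stromal and immune classes, where most members had fewer than 100 UMIs. No paired analysis was possible because each genotype had 1 library.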
